A study of Danio rerio with 12 samples.

Results

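Metallothionein, membrane transporters of zinc, copper and iron, and a copper chaperone were followed in zebrafish offspring of parents fed methylmercury (MeHg). MeHg is a form of mercury that builds up along aquatic food chains. The members were taken by name. They were all rows of the deposited tables whose ZFIN symbol begins with slc30a or slc39a or equals 1 of 10 further names, and that lay above 0 in at least 1 library. This gave 22 of 32674 rows, namely mt2, 8 genes of the slc30a family, 7 of the slc39a family, 4 copper genes (atp7a, atox1, slc31a1, slc31a2) and 2 iron genes (slc11a2, slc40a1). No row carried the symbols mtf1, atp7b or hamp1. A separate gene name table gave the names slc39a8 and atp7b to 2 further rows, which were not members by the rule.

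The samples were 12 RNA libraries of the EK strain, each from a pool of 5 whole embryos, as the labels call them, at 5 days post-fertilisation. Their parents had received food with 0 (control), 1, 3 or 10 ppm MeHg for their whole lives, and each diet had 3 libraries. All 12 were of the first offspring generation (F1), and the agent was the only label that differed between groups. The labels do not tell if pools of 1 diet had different parents or clutches, and the spread behind each p-value is that between pools, which may be technical. Depth recovered from the deposited values was 5.63 to 11.8 M (mega) fragments per library.

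Metals such as zinc, copper and iron are needed by many enzymes and are toxic in excess, so vertebrate cells hold them within limits by uptake, export, storage in vesicles and binding. Metallothioneins are small proteins rich in cysteine that bind zinc and copper and also cadmium and mercury, and their genes are known to respond to zinc and cadmium through the transcription factor MTF1. Proteins of the slc30a family (ZnT) move zinc out of the cytosol, and those of the slc39a family (ZIP) move it in.

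In the controls mt2 (ENSDARG00000041623) had the highest level of the 22, with 162 ± 28.7 FPKM (a fragment count set per length of transcript and per library depth; SD, n = 3). The copper chaperone gene atox1 followed with 80.3 ± 2.70 FPKM. Next came slc40a1, the gene of the iron exporter ferroportin, with 29.8 ± 1.36 FPKM, and slc11a2, the gene of the iron and divalent metal importer DMT1, with 22.6 ± 5.38 FPKM. These 4 did not overlap in the control libraries, although slc40a1 (28.3 FPKM or more) and slc11a2 (27.8 or less) nearly met. This order depends on the transcript lengths behind the FPKM, which were not checked. Mean scaled counts (fragment counts not set per length) in controls were 379 for mt2, 153 for atox1, 612 for slc40a1 and 65.4 for slc11a2. The exporter gene of highest FPKM, slc30a6, had 21.7. All 6 tested zinc exporter genes lay between 11.8 and 17.6 FPKM and the 5 tested zinc importer genes between 4.54 and 12.9 FPKM. Most neighbours in this order could not be separated, since the control libraries overlapped in 15 of 21 neighbouring pairs. The lowest tested member by FPKM was atp7a, the gene of a copper-transporting ATPase, with 3.202 ± 0.328 FPKM.

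**Figure D1:**
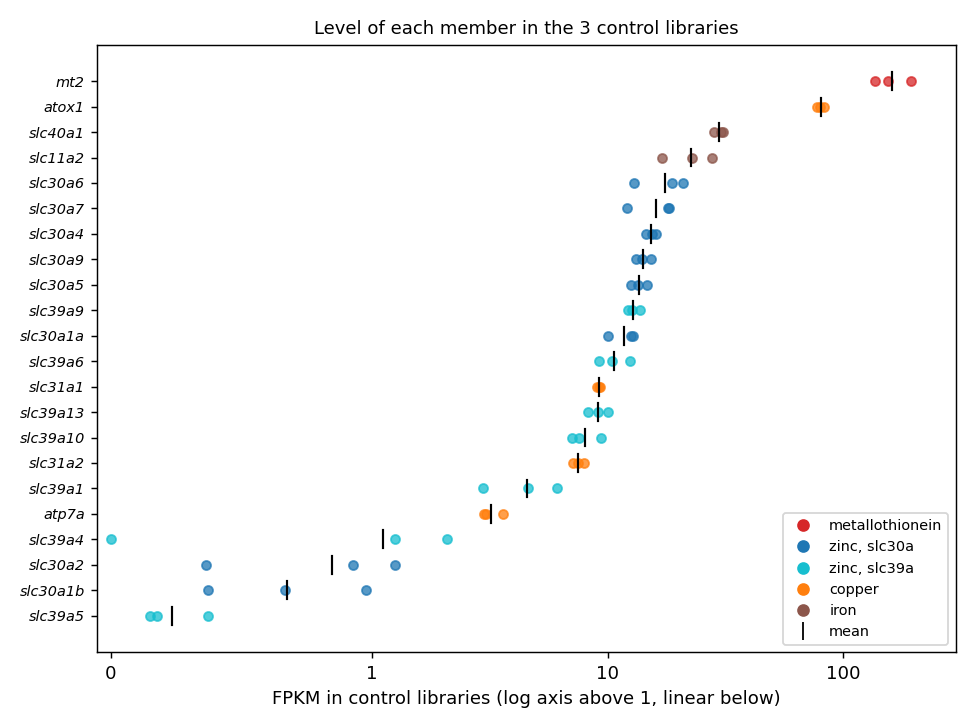
FPKM of each of the 22 members in the 3 control libraries (points; axis logarithmic above 1 FPKM and linear below) with their mean (vertical line), ordered by mean and coloured by metal. The gene mt2 stands at the top with 162 FPKM on average, and 4 members have means from 0.234 to 1.11 FPKM.

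Of the 22 members, 18 reached the minimum for testing, a mean of 10 scaled counts (fragment counts that the authors had divided by a size factor for each library) over the 12 libraries. The other 4, slc39a4, slc39a5, slc30a2 and slc30a1b, stayed below it, with mean scaled counts of 3.71 to 8.37 and 0 to 21 fragments in a library. In mammals SLC39A4 takes up dietary zinc in the gut, and the zebrafish gene slc39a4 was listed at 0 in control replicate 3 and had 11.6 scaled counts at most. Differences between diets in these 4 were poorly resolved at this depth. Fitted with no minimum, 0 of all 22 members passed against control at 1, 3 or 10 ppm.

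No tested member passed in any comparison of diets (limma on log2(scaled count + 1), Benjamini-Hochberg adjustment over all 18390 tested genes, threshold 0.05). Against control, the count was 0 of 18 at 1 ppm, 3 ppm and 10 ppm, where 0%, 0.0163% and 0% of all tested genes passed. It was also 0 of 18 for 10 ppm against 3 ppm (0.0163% of all genes) and for any difference among the 4 diets by an F-test (0.0163%), and 0 of 18 for a trend over the ranks of the diets (0.0218%). At an unadjusted p under 0.05 the counts were 0 of 18 at 1 ppm (1.96% of all genes), 2 at 3 ppm (10.4%) and 2 at 10 ppm (5.71%), and these 2 were mt2 and atp7a at both doses. For 10 ppm against 3 ppm there was 1, slc11a2 (3.77%). The F-test gave 3, mt2, atp7a and slc11a2 (8.59%), and the trend gave mt2 and atp7a (10.3%). Limma-voom called 0 members in each of the 6 comparisons. The comparisons with control share the same 3 control libraries.

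The members' pooled SD between libraries of a diet had a median of 0.21 on the log2 scale, against 0.26 over all tested genes, and ran from 0.08 for slc39a9 to 0.36 for slc30a6. At 1 ppm the 95% interval of the log2 difference from control lay within 1 log2 unit of 0 for 18 of 18 members. At 3 ppm and at 10 ppm it did for 17 of 18, the exception being mt2 at both doses. Over all tested genes 83.7%, 78.4% and 80.4% had intervals of this kind. The median log2 difference of the 18 was 0.04 at 1 ppm, -0.04 at 3 ppm and -0.07 at 10 ppm, beside -0.0078, -0.0041 and 0.015 over all tested genes. Signs were mixed. At 1 ppm 11 members lay above 0 (48.2% of all tested genes) and 7 below (51.8%). At 3 ppm it was 8 above (49.4%) and 10 below (50.6%), and at 10 ppm 6 above (52.5%) and 12 below (47.5%). For 10 against 3 ppm 5 lay above 0 (52%) and 13 below (48%), and 6 slopes over the diets were above 0 (51.9%) and 12 below (48.1%). The median at 3 ppm turned to 0.10 with the clock score described below as a covariate.

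**Figure D2:**
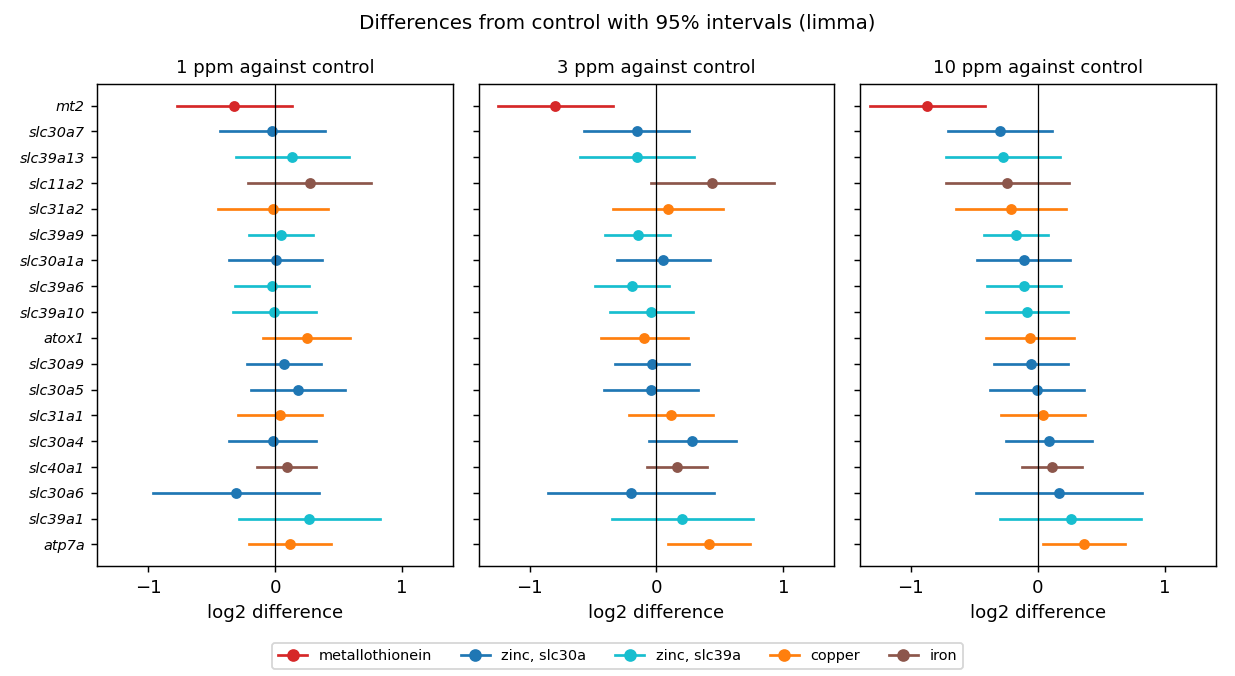
Log2 difference from control of the 18 tested members (points) with 95% intervals from limma (lines), in 1 panel for each diet, coloured by metal. At 3 and 10 ppm only the intervals of mt2 (below 0) and atp7a (above 0) leave out 0, and neither passed after adjustment.

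The metallothionein gene mt2 had the lowest log2 difference of the 18 in each comparison with control, though at 1 ppm slc30a6 was nearly as low (-0.31). Scaled counts were 324, 354 and 459 in control libraries 1 to 3 and 234, 291 and 395 at 1 ppm. At 3 ppm they were 220.4, 249 and 182, and at 10 ppm 259.5, 169.6 and 195. All 6 libraries of 3 and 10 ppm lay below all 3 controls, a pattern that 404 of 18390 tested genes had (2.2%), while the 1 ppm libraries overlapped both. Means at 1, 3 and 10 ppm were 81.0%, 57.3% and 54.9% of the control mean. Log2 differences were -0.32 (SE 0.21), -0.80 (SE 0.21) and -0.87 (SE 0.21), with 95% intervals of -0.77 to 0.13, -1.25 to -0.34 and -1.32 to -0.42 (limma adjusted p = 1.00, 0.382 and 0.525). Between 3 and 10 ppm the difference was -0.07, with an interval of -0.53 to 0.38. The slope over the ranks of the diets was -0.31 log2 units per step (SE 0.07, interval -0.45 to -0.17; limma adjusted p = 0.170). Without control replicate 1 this slope was -0.33 and passed (limma adjusted p = 0.0452), and 146 genes passed in all. That library is the one control of negative clock score (described below), so without it the controls and the 3 and 10 ppm diets cannot be told apart from clock state. With the clock score as covariate the slope was -0.17. Over all alternatives run its adjusted p lay between 0.0452 and 1.00. Each mt2 value rested on 210.0 to 512 fragments. In whole embryos, fewer cells of a type and less RNA per cell cannot be told apart. Summed FPKM of the 15 liver markers with a row lay between 9378 and 9779 in controls, 8787 and 14357 (3 ppm), and 8445 and 12330 (10 ppm). For the 10 intestine markers with a row the sums were 2380.1 to 2663, 2224 to 3081 and 2587 to 2873. The 14 neuron markers summed to 895 to 1115 FPKM in controls and, with no overlap, to 737 to 889 FPKM at 3 ppm, while the 10 ppm sums of 923 to 1040.5 overlapped the controls. The gap at 3 ppm was small (889 against 895), and the 3 ppm sums of every other marker list overlapped the controls. The part of these tissues in the mt2 values was not tested.

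**Figure D3:**
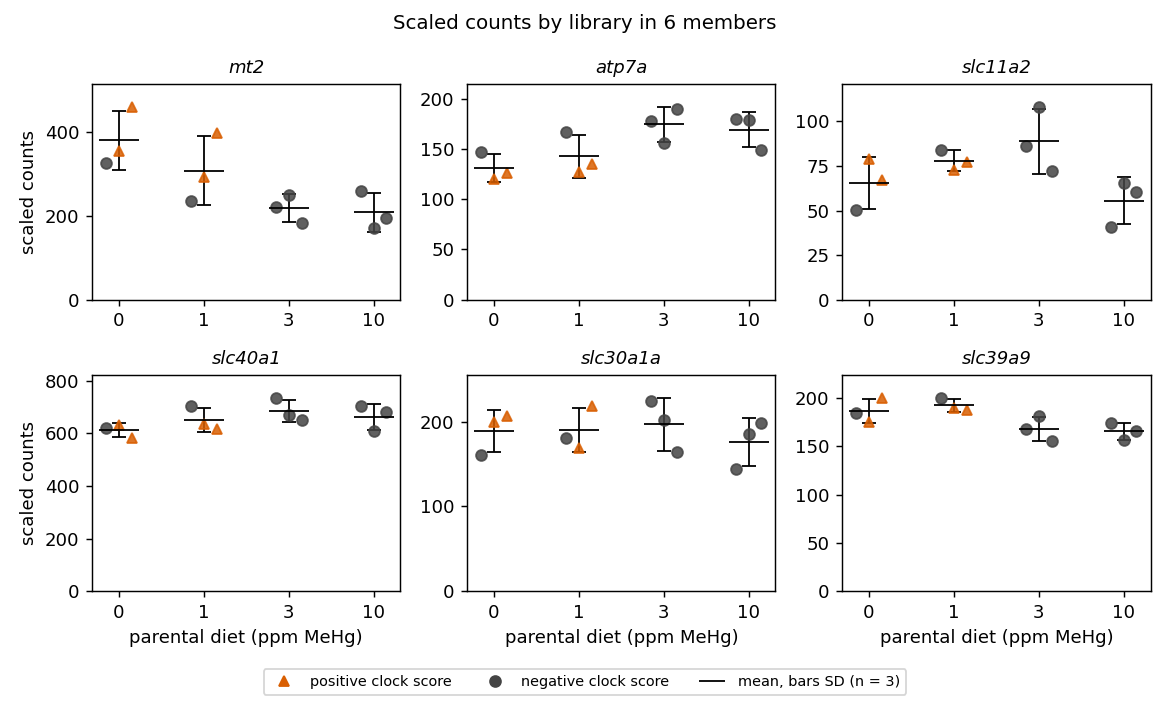
Scaled counts in each library (points) by parental diet for mt2, atp7a, slc11a2, slc40a1, slc30a1a and slc39a9, with the mean and SD of 3 libraries. Triangles mark the 4 libraries of positive clock score. All 6 libraries of 3 and 10 ppm lie below the controls for mt2 and above them for atp7a.

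Of the copper genes, atp7a (ENSDARG00000003699) had the largest log2 differences from control at 3 and 10 ppm. Its product loads copper into enzymes of the secretory pathway and exports copper, and zebrafish without it lack melanin. Scaled counts were 147, 119.6 and 126 in controls and 167, 127 and 135 at 1 ppm, then 178, 156 and 190.1 at 3 ppm and 179, 178 and 149 at 10 ppm. Every library of 3 and 10 ppm lay above every control, as in 417 of 18390 tested genes (2.27%), although 10 ppm replicate 3 exceeded the highest control only slightly. Log2 differences from control were 0.12 (SE 0.15), 0.41 (SE 0.15) and 0.37 (SE 0.15) at 1, 3 and 10 ppm (limma adjusted p = 1.00, 0.433 and 0.822). The slope was 0.14 per diet step (SE 0.05; limma adjusted p = 0.377).

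The chaperone gene atox1, whose product hands copper to such ATPases, had scaled counts of 161, 143 and 155 in controls and 180.3, 168 and 198 at 1 ppm. Values were 176, 125 and 133 at 3 ppm and 155, 122 and 167 at 10 ppm. The 3 libraries of 1 ppm lay above the controls, the higher doses overlapped them, and the log2 difference at 1 ppm was 0.25 (interval -0.10 to 0.59; limma adjusted p = 1.00). For slc31a2, a gene of the copper transporter family, scaled counts were 51.8, 57.3 and 52.9 in controls and 43.4, 71.0 and 49.1 at 1 ppm, then 64.1, 50.2 and 59.23 at 3 ppm and 51.2, 42.0 and 46.7 at 10 ppm. The 10 ppm libraries lay just under the controls and overlapped those of 3 ppm (log2 difference of 10 from 3 ppm -0.30, interval -0.74 to 0.13). The gene of the main copper importer, slc31a1, had log2 differences from control of 0.04, 0.11 and 0.04, with 225 to 233 scaled counts in controls and 203 to 312.5 over the 12 libraries.

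The 2 iron genes encode an exporter and an importer. Ferroportin, the product of slc40a1, exports iron from cells and is needed for iron supply to zebrafish blood. Its gene had 583 to 634 scaled counts in controls and 617 to 703 at 1 ppm, then 653 to 734 (3 ppm) and 609 to 703 (10 ppm). The 3 ppm libraries lay above the controls, and the log2 difference was 0.16 (SE 0.11, interval -0.08 to 0.40; limma adjusted p = 0.601). DMT1, the product of slc11a2, carries ferrous iron out of endosomes and into cells. Its gene had 50.1, 79.0 and 67.2 scaled counts in controls and 84.2, 72.7 and 77.2 at 1 ppm, then 86.2, 108 and 72.2 at 3 ppm and 40.5, 65.4 and 60.3 at 10 ppm. Control libraries overlapped every diet, and the 10 ppm libraries lay below those of 3 ppm, as in 812 of 18390 tested genes (4.42%), while 0 members had the reverse (6.54%). For 10 against 3 ppm the log2 difference of slc11a2 was -0.68 (SE 0.23, interval -1.17 to -0.20; limma adjusted p = 1.00), and the 10 ppm mean was 62.3% of the 3 ppm mean. Its log2 differences from control were 0.27, 0.44 and -0.24 at 1, 3 and 10 ppm. With the 4 libraries of positive clock score left out (the clock score is described below) those at 1 and 3 ppm were 0.74 and 0.80. That omission leaves only control replicate 1, the lowest control with 50.1, and 1 ppm replicate 1 in their groups. Without control replicate 1 the differences at 1 and 3 ppm were 0.09 and 0.26. The difference at 3 ppm was 0.29 without 3 ppm replicate 2. At 1 ppm it was 0.42 without control replicate 2.

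Zinc exporter genes lay on both sides of 0. Of the 6 tested, 3 were above control at 1 ppm, 2 at 3 ppm and 2 at 10 ppm, and their log2 differences ran from -0.31 to 0.18, -0.20 to 0.28 and -0.30 to 0.17. The gene slc30a1a, a copy of the plasma membrane exporter ZnT1, a known target of MTF1 in mammals, had 161 to 206 scaled counts in controls. The other diets overlapped them, with 169 to 219 at 1 ppm, 164 to 225 (3 ppm) and 144 to 198 (10 ppm). Its log2 differences were 0.0048, 0.05 and -0.11, with an interval of -0.48 to 0.26 at 10 ppm.

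The exporter gene slc30a4, whose mammalian product fills vesicles, had 239, 216 and 229 scaled counts in controls and 271, 177 and 235 at 1 ppm, then 246, 323 and 267 at 3 ppm and 218, 254 and 255 at 10 ppm. The 3 ppm libraries lay above the controls and the other diets overlapped them (log2 difference at 3 ppm 0.28, interval -0.06 to 0.62; limma adjusted p = 0.534). Without 3 ppm replicate 2 this difference was 0.17. Products of slc30a5, slc30a6 and slc30a7 are known in mammals to bring zinc into the secretory pathway. Scaled counts of slc30a7 were 117, 172 and 176 in controls and 132, 138 and 186 at 1 ppm, then 156, 140.4 and 117 at 3 ppm and 114, 118 and 141 at 10 ppm. Control replicate 1 was among the lowest of the 12, and the diets overlapped. Its log2 difference at 10 ppm was -0.30 (limma adjusted p = 0.852) and reversed to 0.07 with the clock score as a covariate. Scaled counts of slc30a5 were 214, 176 and 182 in controls and 189, 242 and 218 at 1 ppm, then 213, 179 and 165 at 3 ppm and 226, 146 and 204 at 10 ppm. No diet separated from control in slc30a5, and its difference at 1 ppm was 0.18 (interval -0.19 to 0.55), or 0.09 without 1 ppm replicate 2 and 0.27 without 1 ppm replicate 1. The gene slc30a6 rested on 15 to 38 fragments in a library, with 14.9, 25.9 and 24.2 scaled counts in controls and 15.3, 17.7 and 17.6 at 1 ppm, then 13.3, 24.5 and 18.6 at 3 ppm and 30.6, 25.8 and 17.1 at 10 ppm. These overlapped throughout, and its interval for 10 against 3 ppm, -0.29 to 1.02, had the largest SE of the 18 members (0.30). The mitochondrial exporter gene slc30a9 had 199 to 269 scaled counts over the 12 libraries and log2 differences of 0.07, -0.04 and -0.06.

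Log2 differences of the zinc importer genes from control ran from -0.03 to 0.27 at 1 ppm, -0.19 to 0.20 at 3 ppm and -0.27 to 0.26 at 10 ppm. At 3 and 10 ppm 4 of the 5 tested lay below control and 1, slc39a1, above, with medians of -0.15 and -0.11. The gene slc39a9, whose mammalian product lies in the Golgi, had the smallest spread within diets. Its scaled counts were 185, 176 and 199.9 in controls and 199.8, 190.1 and 187 at 1 ppm, then 168, 181 and 156 at 3 ppm and 174, 157 and 166 at 10 ppm. The 10 ppm libraries lay just below the controls (174.4 at most against 175.5 at least), while 1 and 3 ppm overlapped them. At 10 ppm the log2 difference was -0.17 (SE 0.12; limma adjusted p = 0.856) and the slope was -0.07 per step (limma adjusted p = 0.507). For slc39a6 and slc39a10, related importers whose mammalian products pair with each other, the differences at 1, 3 and 10 ppm were -0.03, -0.19 and -0.11, and -0.0061, -0.04 and -0.09. Over the 12 libraries slc39a6 had 119 to 166 scaled counts and slc39a10 had 192 to 270.3. The importer gene slc39a13, needed for connective tissue in mammals, had 75.9 to 149.8 scaled counts and differences of 0.14, -0.15 and -0.27. Its interval at 10 ppm was -0.72 to 0.17. The plasma membrane importer gene slc39a1 had 0.27, 0.20 and 0.26, with 28.7 to 58.7 scaled counts in controls and up to 61.5 at 3 ppm. At 10 ppm the interval of slc39a1 was -0.30 to 0.81.

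Counts of the 18 tested members whose libraries did not overlap with the controls can be set beside those of all tested genes. At 1 ppm 1 member lay wholly above (atox1; 3.26% of all tested genes did) and 0 below (2.77%). At 3 ppm 3 lay above (atp7a, slc30a4 and slc40a1; 8.27%) and 1 below (mt2; 9.45%). At 10 ppm 1 lay above (atp7a; 5.55%) and 3 below (mt2, slc31a2 and slc39a9; 4.81%). The gaps of atp7a, slc31a2 and slc39a9 at 10 ppm were narrow.

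**Figure D4:**
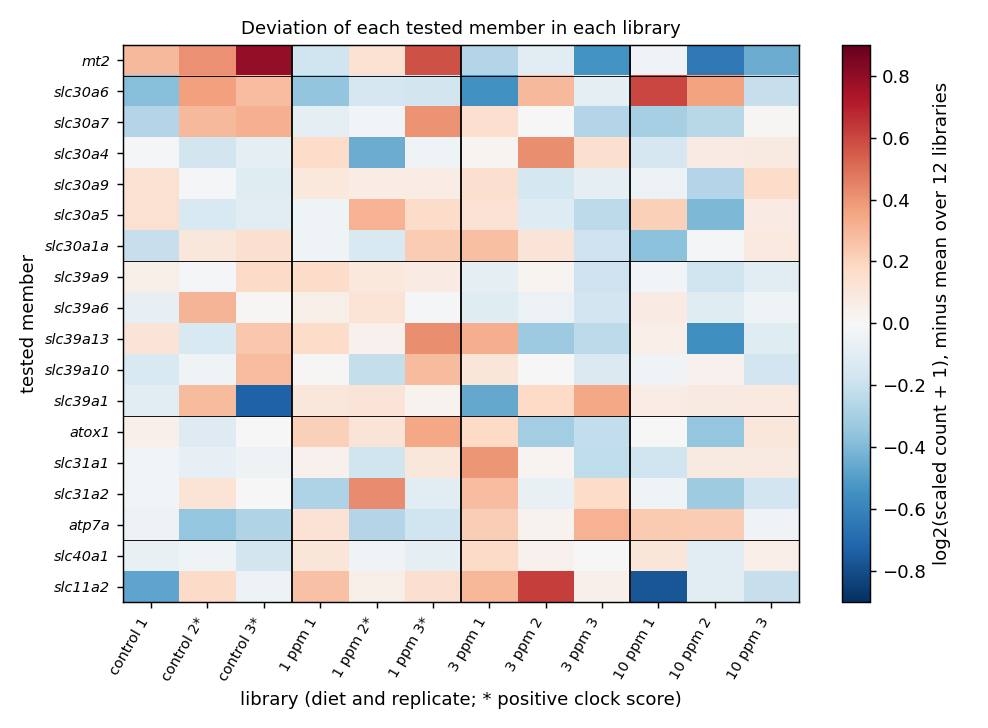
Deviation of log2(scaled count + 1) from the mean of the 12 libraries for each tested member (rows, grouped by metal) in each library (columns); stars mark positive clock scores. The row of mt2 is highest in control replicate 3 and lowest in 10 ppm replicate 2, and the row of atp7a is lowest in control replicate 2 and highest in 3 ppm replicate 3.

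Clock state differed between libraries and was partly confounded with diet. A clock score, the first principal component of 43 tested clock genes (88.4% of their variance, positive where per1b was high), was positive in control replicates 2 and 3 and 1 ppm replicates 2 and 3 and negative in the other 8 libraries, which hold all of 3 and 10 ppm. The gene atp7a had 119.6 to 135 scaled counts in the 4 libraries of positive score and 147 to 190.1 in the 8 of negative score, with no overlap, as in 607 of 18390 tested genes (3.3%). It was the only one of the 18 tested members with no overlap between these libraries, and 0 members lay wholly higher at positive score (3.86%). The gene mt2 had 291 to 459 in the libraries of positive score and 169.6 to 324 in the others, and these ranges overlapped. The overlap came from control replicate 1 alone (324, negative score), which exceeded 1 ppm replicate 2 (291). Every other library of negative score had 259.5 or less. With that score as a covariate, mt2 at 3 and 10 ppm had log2 differences of -0.44 and -0.52, and atp7a of 0.18 and 0.13. The slope of atp7a over the diets was then 0.04. With the 4 libraries of positive score left out, the lone control and the lone 1 ppm library are assumed to vary as the others do, and the values were -0.59 and -0.66 for mt2 and 0.24 and 0.20 for atp7a. None of these passed. The difference of slc11a2 between 10 and 3 ppm, 2 diets of the same clock state, was -0.69 with the covariate.

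Marker sums of pigment cells and endocrine pancreas had different ranges in these libraries, with some overlap. The 11 pigment cell markers with a row summed to 146 to 217 FPKM in the libraries of positive score and 32.5 to 156 FPKM in those of negative score, and to 32.5 to 217 in controls, 42.8 to 156 (3 ppm) and 41.7 to 118 (10 ppm). The 12 endocrine pancreas markers summed to 274 to 381 FPKM and 375 to 474 FPKM in the libraries of positive and negative score. Their part in the atp7a values was not tested.

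**Figure D5:**
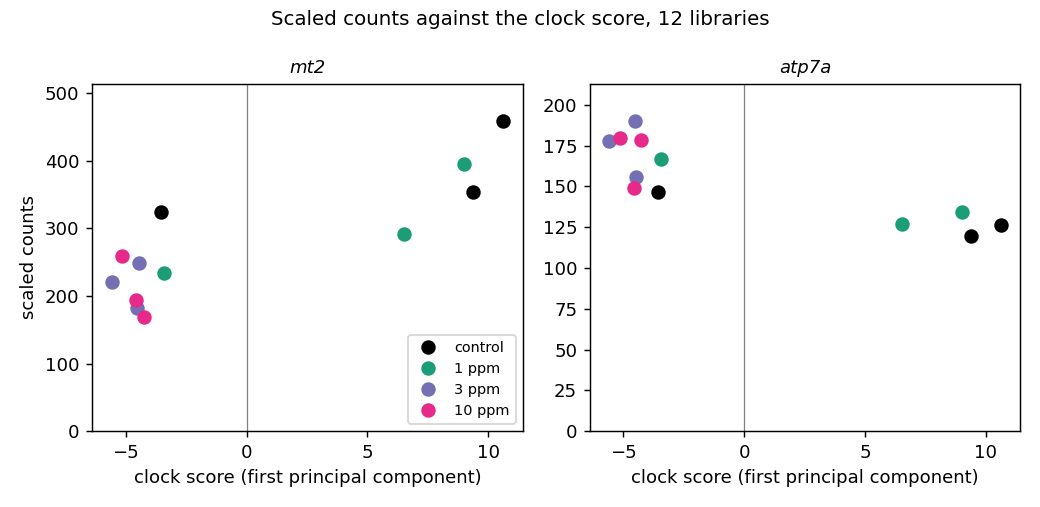
Scaled counts of mt2 and atp7a (vertical axes, from 0) against the clock score (horizontal axis, no unit) in the 12 libraries, coloured by parental diet. All libraries of 3 and 10 ppm have negative scores. The values of atp7a separate the positive from the negative scores, and those of mt2 do so except for control replicate 1.

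Other genes linked to iron, copper, MeHg or further metal ions were followed through 4 lists. The lists are broad, and the last also holds genes of wider roles, such as pcna and sqstm1. Of 31 tested genes of iron uptake, storage and regulation 0 passed in any of the 6 comparisons, with an unadjusted p under 0.05 for 1 gene at 1 ppm (1.96% of all tested genes), 3 at 3 ppm (10.4%), 0 at 10 ppm (5.71%), 1 for 10 against 3 ppm (3.77%), 2 in the F-test (8.59%) and 0 in the trend (10.3%). Those of smallest p in the F-test were cp, the gene of the plasma ferroxidase ceruloplasmin (690 ± 118 scaled counts in controls, 486 ± 112, 821 ± 54.6 and 831 ± 151 with rising parental dose; SD, n = 3; limma adjusted p = 0.483), the metalloreductase gene steap2, and hpx, the gene of the haem-binding plasma protein haemopexin. The 3 ppm and 10 ppm libraries of hpx had 138 ± 49.0 and 72.4 ± 71.0 scaled counts, against 52.6 ± 20.5 in controls. Of 22 tested genes of copper chaperones and cuproenzymes, a list that also holds cp, 0 passed. At an unadjusted p under 0.05 there were 1 at 1 ppm (1.96% of all tested genes), 3 at 3 ppm (10.4%) and 0 at 10 ppm (5.71%). There were 0 for 10 against 3 ppm (3.77%), 2 in the F-test (8.59%) and 1 in the trend (10.3%). The gene cox17, whose product carries copper to cytochrome oxidase, had log2 differences of 0.02, -0.84 and -0.56 and cox11 0.19, -0.45 and -0.18. Scaled counts of cox17 spread from 133 to 333 in controls and from 130 to 331 at 1 ppm. They were 103 to 125 at 3 ppm and, overlapping the controls, 125 to 164 at 10 ppm (limma adjusted p = 0.441 and 0.851).

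Of 33 tested genes in the list of MeHg uptake, conjugation and efflux, which also holds glutathione peroxidase genes, 0 passed. The amino acid transporter gene slc7a6 had 36.4 ± 5.71 scaled counts in controls and 36.9 ± 8.91, 62.6 ± 1.99 and 66.8 ± 10.6 with rising dose (SD, n = 3), with log2 differences of 0.0046, 0.78 and 0.86 (limma adjusted p = 1.00, 0.396 and 0.538). The efflux pump gene abcc2 had -0.13, 0.66 and 0.38 and the glutathione peroxidase gene gpx1a 0.56, 0.19 and -0.61. At an unadjusted p under 0.05 this list had 0 genes at 1 ppm (1.96% of all tested genes), 4 at 3 ppm (10.4%), 2 at 10 ppm (5.71%), 2 for 10 against 3 ppm (3.77%), 4 in the F-test (8.59%) and 8 in the trend (10.3%). Of 20 tested genes in the list of other metal-ion handling 0 passed. An unadjusted p under 0.05 was found for 0 at 1 ppm (1.96% of all tested genes), 1 at 3 ppm (10.4%) and 0 at 10 ppm (5.71%). It was found for 1 between 10 and 3 ppm (3.77%), 1 in the F-test (8.59%) and 2 in the trend (10.3%). The genes of smallest F-test p in this list were cnnm4b, sqstm1 and trpm7. Log2 differences were 0.05, 0.75 and 0.50 for cnnm4b, of a family linked to magnesium transport. They were -0.04, 0.32 and 0.27 for the autophagy receptor gene sqstm1 and -0.04, 0.21 and -0.24 for the channel gene trpm7. Medians of the 4 lists at 10 ppm were -0.04, -0.06, -0.10 and 0.02 in this order, beside 0.015 over all tested genes.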

How the data were processed

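Scaled counts are the deposited signal values. Their steps show that the authors divided each library's counts by its own size factor. By library, 98.3% to 98.7% of values below 200 were whole multiples of 1 step, within 0.02 steps. The FPKM table is likewise as the authors deposited it. The submitters' processing notes name CASAVA 1.8.2, cutadapt, FastQC, TopHat, Cuffnorm and the build Zv9. Their settings, strand use and annotation release: not given in the sources used here. Reads of overlapping antisense genes therefore cannot be told apart.

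Log2(scaled count + 1) of the 18390 genes whose mean reached 10 entered 1 limma fit (limma 3.58.1, R 4.3.3) over all libraries, with trend and robust options. This scale understates changes of low genes. All p-values are two-sided and adjusted over every tested gene (Benjamini-Hochberg), and the fits were tested on simulated data with known changes for each comparison. Those changes were placed in genes of higher counts. The simulated libraries held no clock differences, so the confounding of diet with clock state was not covered. Tests on raw counts were not used, since a few values are fractional estimates. Values in every library are given for mt2 and the 4 members of smallest p in each comparison, and the other members by range; slc30a1a and slc40a1 were added to a figure after their values were seen. From each related list without a gene that passed, the 3 genes of smallest F-test p are named. The members, lists and alternatives were chosen with earlier results of these data known. Python 3.11.15, pandas 2.3.3 and matplotlib 3.10.9 prepared tables and figures.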

Additional observations from a re-analysis of the deposited data

How the results depend on the processing

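Of 25 alternatives, 12 left out 1 library each; the trend was run under 24, the F-test under 22 and the other comparisons under 23. Under these the count of members that passed stayed at 0 except in the trend, where the lowest count over the omissions was 0 and the highest 1 (mt2, without control replicate 1). Medians of the members moved beyond the spread of library medians (0.08 log2 units) in 5 cases. Without the 4 libraries of positive clock score they were 0.14, 0.13 and 0.035 at 1, 3 and 10 ppm. At 3 ppm the median was 0.073 with no filter on low values and 0.10 once clock score entered as covariate. Over omissions of 1 library the medians ran from 0.03 to 0.10 at 1 ppm, -0.07 to 0.03 at 3 ppm, -0.12 to -0.03 at 10 ppm and -0.09 to 0.02 for 10 against 3 ppm. Directions reversed for slc30a5 at 1 ppm (-0.18 without the libraries of positive score), for slc30a7 at 10 ppm (0.070 with the covariate, 0.083 without those libraries) and in the trend (0.017 and 0.0095), and for mt2 between 3 and 10 ppm without 3 ppm replicate 2 (0.030) or 10 ppm replicate 2 (0.061), where all omissions ran from -0.24 to 0.061. The cause was not tested. For mt2 at 1, 3 and 10 ppm the omissions gave -0.52 to -0.14, -0.90 to -0.65 and -1.04 to -0.72. They gave -0.49 to -0.19 for slc30a7 at 10 ppm, 0.15 to 0.60 for slc30a6 and -0.28 to -0.08 for slc30a4 between 3 and 10 ppm. Without control replicate 1, 17 genes in all passed at 3 ppm, 41 at 10 ppm and 146 in the trend. The trend of mt2 was -0.07 per ppm with dose in ppm, which is another unit.

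With the replicate number as a block 0 members passed and the slope of mt2 was -0.31. Numbers did not pair the libraries over all diets. Of 18 same-numbered pairs, 6 had deviations correlated above 0.1 (range -0.23 to 0.47), and 5 of 12 libraries correlated best with their own number. The highest correlations of all pairs were between same-numbered libraries of control and 1 ppm (0.47 for number 1, 0.44 for number 3). For number 2 of these diets the correlation was -0.11. In both diets number 1 had a negative clock score and numbers 2 and 3 had positive ones. Replicate number and clock state therefore cannot be told apart in the pairs of numbers 1 and 3. Median-of-ratios rescaling and limma-voom on the scaled values were chosen after seeing the data. TMM, edgeR, DESeq2 and limma-voom on recovered fragments were not run. Depth limits slc30a6 and the 4 untested members most.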

Other observations

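The 4 members below the testing minimum were listed with few fragments. The importer gene slc39a5 had 1.79 to 3.51 scaled counts in controls and 2.53 to 3.51 at 1 ppm, against 2.26 to 4.42 (3 ppm) and 4.13 to 7.40 (10 ppm). Its 10 ppm libraries lay above the controls. Of all tested genes 5.55% had this pattern, but these have a mean of at least 10. The share among genes as low as slc39a5 was not computed. These values rested on 2 to 13 fragments in a library. The exporter gene slc30a2 had 2.80 to 9.67 in controls and 6.61 to 11.9 at 10 ppm, and slc30a1b, the second copy of the ZnT1 gene, had 3.51 to 9.09 and 3.98 to 5.65. Against slc30a1b, the copy slc30a1a had 11.8 ± 1.54 FPKM in controls where slc30a1b had 0.673 ± 0.302 FPKM (SD, n = 3). The 2 rows named slc39a8 and atp7b in the gene name table alone had mean scaled counts of 11.7 and 14.2.

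Tissue marker sums in the controls, 1, 3 and 10 ppm libraries were, for 14 exocrine pancreas genes with a row, 12827 to 37852, 14476 to 44233, 19706 to 37512 and 26799.9 to 35105 FPKM. Of the other lists, 11 erythroid genes summed to 1881 to 4355 FPKM over the 12 libraries, 19 ionocyte and skin genes to 13970.0 to 20961, 15 retina genes to 5699 to 9298, 14 neuron genes to 737 to 1126, and 9 macrophage and neutrophil genes to 116 to 302. No list had a marker at 0 in all 12 libraries among those with a row.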
